A study of Mus musculus with 6 samples.

Results

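The genes followed here mark the mesenchymal progenitor cells of fat: Pdgfra, Dpp4, Cd55, Icam1, Clec11a, F3 and Zfp423. They were chosen by symbol, all 7 were found, and they are 7 of the 12163 genes in the deposited table. Fat of wild-type C57BL/6 mice was sequenced as total RNA from 3 libraries before grafting and 3 libraries taken 7 days after grafting, described by the submitters as biological replicates. Depot, graft site, age and sex are not given in the labels, and since every sample is wild type, cells of the grafted tissue and cells that entered from the host cannot be told apart. Levels are given as normalized read counts, which in each library are whole multiples of a step close to 1 that differs between libraries. Fold changes in log2 are of the value plus 1, which understates those of low genes. The sign ± gives the SD over the 3 libraries of a group unless SE is written.

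Adipocytes are renewed from PDGF receptor alpha-positive fibroblast-like cells in the stroma of fat. In mouse fat these cells are commonly divided into DPP4-positive interstitial progenitors, which lie in the connective tissue around the depot and also carry CD55, ICAM1-positive preadipocytes committed to becoming adipocytes, and CD142-positive cells that restrain the adipogenesis of their neighbours. CD142 is tissue factor, the product of F3, and Clec11a marks the same CD142-positive cells. Zfp423 encodes a zinc finger protein that primes preadipocytes to express Pparg in response to bone morphogenetic proteins. None of these genes is restricted to progenitors: Icam1 is induced by inflammatory cytokines on endothelial and myeloid cells, Dpp4 is the T cell antigen CD26, CD55 sits on many cells exposed to complement, and F3 can be made by activated monocytes and macrophages.

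The members moved in opposite directions. Pdgfra, Icam1, Clec11a and F3 rose and Dpp4, Cd55 and Zfp423 fell in grafts. Among the members alone, the interstitial markers went down, and the committed-preadipocyte marker and both markers of the CD142-positive cells went up. Other genes listed for these states, given below, did not all follow them. Median log2 fold changes of the interstitial, committed and CD142 lists, members included, were -1.40, -2.95 and 1.89. In the limma test 4 members were called higher and 3 lower at an adjusted p under 0.05, and all 7 passed the filter on low values. The table had been selected for genes that differ between the groups, so this count says little: 80.4% of the 10854 tested genes were called, 41.3% as higher and 39.2% as lower. The values of the groups were apart for all 7 members, which was also the case for 97.6% of tested genes. The median log2 fold change was 0.28 over all tested genes. Over the members it was 1.66, the value of Pdgfra, which does not describe a set that moved in opposite directions. Each member kept its direction under every rescaling tried. RNA came from whole tissue, so fewer cells of a type and less RNA per cell cannot be told apart in any value below.

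**Figure D1:**
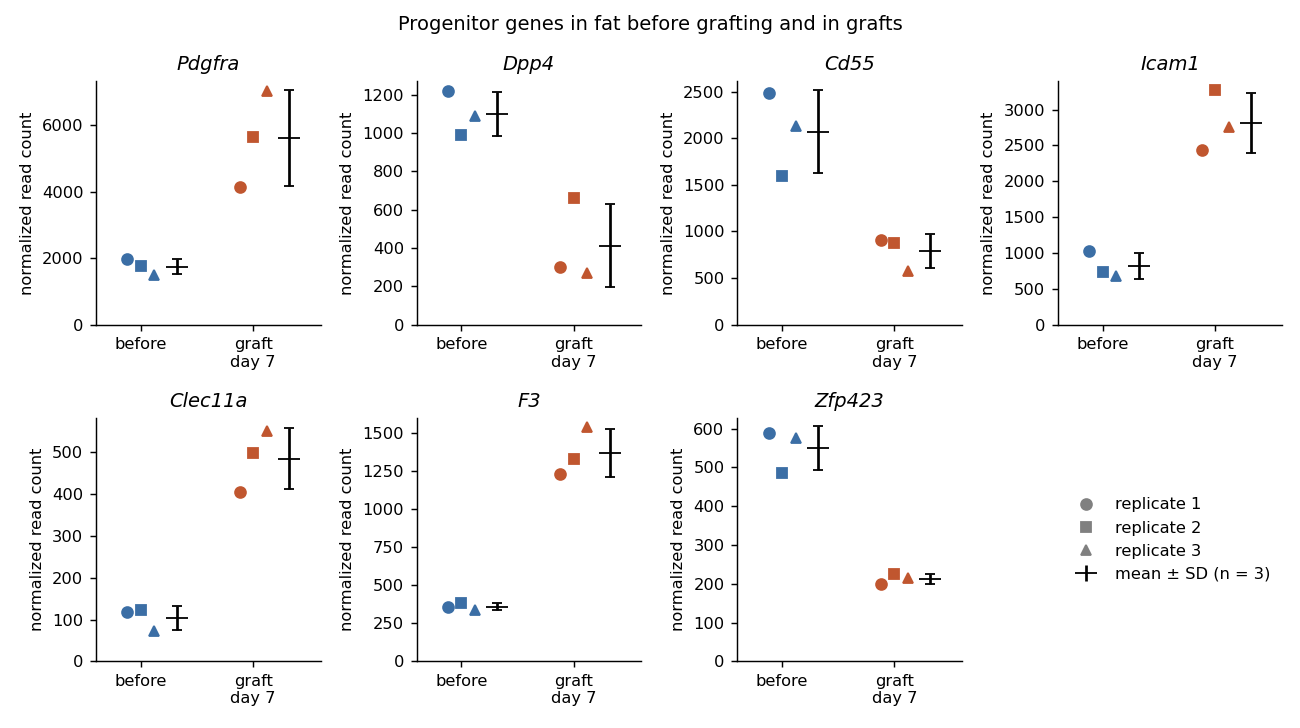
Normalized read counts (vertical axes, starting at 0, a separate scale for each gene) of the 7 progenitor genes in the 3 libraries before grafting (blue) and the 3 grafts at day 7 (orange), with the mean and SD of each group in black. For each gene the groups do not overlap, and Dpp4 has the largest spread among grafts relative to its mean (52.7%), from 272.0 to 661.4.

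The sequence before the start is shown only for windows that hold a match printed in capitals. These are the windows of Icam1 and F3, which rose, and of the 3 members that fell, with Zfp423 at its internal start. NF-kappaB and AP-1 act downstream of inflammatory cytokines, and early B cell factors (EBF) act in preadipocytes. As the motifs were chosen with the windows in view and windows by their matches, their split between rising and falling members is no result. The part of these factors in the changes was not tested. Each stretch is the 250 bases before the start in RefSeq (GRCm38.p6), printed 5′ to 3′ on the gene's strand, with motif matches in capitals. The motifs, chosen with the windows in view, were a kappaB-like GGANNTTCC, the AP-1 motif TGANTCA and an EBF-like CCCNNGGG, searched on both strands. They occur in 3.59%, 6.75% and 11.8% of all 32851 windows of this length in the RefSeq table. The GC box GGGCGG, in 32.7% of windows, was searched too and is not capitalised. Icam1 lies at chr9:21015690-21015939 (plus strand), F3 at chr3:121723287-121723536 (plus strand), Dpp4 at chr2:62412232-62412481 (minus strand), Cd55 at chr1:130462745-130462994 (minus strand), and the window of the second, internal start of Zfp423 at chr8:87804440-87804689 (minus strand).
Icam1: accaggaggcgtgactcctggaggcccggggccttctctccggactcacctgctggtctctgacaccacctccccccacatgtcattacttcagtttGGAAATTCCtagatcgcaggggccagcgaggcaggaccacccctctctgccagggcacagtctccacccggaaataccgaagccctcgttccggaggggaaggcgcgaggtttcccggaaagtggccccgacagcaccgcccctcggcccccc
F3: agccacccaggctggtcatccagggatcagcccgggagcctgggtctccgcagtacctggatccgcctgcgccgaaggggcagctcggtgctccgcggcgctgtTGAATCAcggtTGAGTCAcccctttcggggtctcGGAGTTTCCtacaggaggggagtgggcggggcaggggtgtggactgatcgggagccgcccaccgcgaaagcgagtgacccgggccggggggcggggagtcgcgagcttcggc
Dpp4: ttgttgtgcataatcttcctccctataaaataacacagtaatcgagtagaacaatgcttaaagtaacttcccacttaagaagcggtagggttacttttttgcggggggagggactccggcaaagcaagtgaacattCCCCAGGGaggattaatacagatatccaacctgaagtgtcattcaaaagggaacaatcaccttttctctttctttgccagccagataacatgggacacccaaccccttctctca
Cd55: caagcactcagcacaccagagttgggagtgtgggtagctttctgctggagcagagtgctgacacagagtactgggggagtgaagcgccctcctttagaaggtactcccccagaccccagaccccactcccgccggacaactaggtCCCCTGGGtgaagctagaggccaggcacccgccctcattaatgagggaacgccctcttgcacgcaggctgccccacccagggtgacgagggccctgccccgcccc
Zfp423: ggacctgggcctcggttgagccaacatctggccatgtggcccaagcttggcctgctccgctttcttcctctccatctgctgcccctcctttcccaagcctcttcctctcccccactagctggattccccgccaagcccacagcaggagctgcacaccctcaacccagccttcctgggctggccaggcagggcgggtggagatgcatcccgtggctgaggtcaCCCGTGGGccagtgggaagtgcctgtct

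In capitals, Icam1 holds 1 kappaB-like match, GGAAATTCC, beginning 153 bases before its RefSeq start. That start directly follows the window's last base, 21015939, and lies upstream of the deposited gene start, 21015985. F3 holds 1 kappaB-like match, GGAGTTTCC, 112 bases before its start, and AP-1 matches at 146 and 135 bases. Dpp4, Cd55 and the internal start of Zfp423 each hold 1 EBF-like match, at 114, 105 and 28 bases. The GC box occurs in the windows of Cd55, Icam1, Clec11a, F3 and Zfp423 (both starts). No match to the capitalised motifs was found in the windows of Pdgfra and Clec11a or at the first start of Zfp423, which says only that these letters are not in those windows. The matches describe sequence and are not measured binding sites.

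Pdgfra, the receptor that defines the progenitor pool as a whole (chromosome 5, 75152292 to 75198215, plus strand, GRCm38, a protein-coding gene like the other members), had 1960, 1771 and 1496 normalized counts in replicates 1, 2 and 3 before grafting and 4148, 5630 and 7029 in the grafts. Each graft stood above each library taken before grafting. The mean went from 1742 ± 233 to 5602 ± 1441, 3.22-fold higher, or 1.66 ± 0.19 (SE) as a log2 fold change (adjusted p = 0.000487). Pdgfrb, the receptor of mural cells and of many fibroblasts, rose by nearly the same amount (log2 fold change 1.69, SE 0.10), from 1506 to 1752 before grafting to 4865 to 5532 in grafts. Of the ligands, Pdgfa, which signals through the alpha receptor, rose from 151 ± 2.4 to 582.5 ± 67.9 (log2 fold change 1.94). Pdgfc, another alpha receptor ligand, changed by -0.78 in log2 (adjusted p = 0.032), a call that was lost without replicate 2 or 3 of either group. Pdgfd, a beta receptor ligand, missed the threshold at -0.63 (adjusted p = 0.0577). Pdgfrl, which encodes a receptor-like protein, rose by a log2 fold change of 4.04, and Pdgfb lay outside the table and was not analysed here. In all, 4 of 6 tested genes of the PDGF system were called higher and 1 lower, with a median of 1.67.

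Dpp4 encodes dipeptidyl peptidase 4, a membrane enzyme that trims peptide hormones and chemokines (chromosome 2, 62330073 to 62412231, minus strand). It had 1220, 991 and 1091 normalized counts before grafting and 301.3, 661.4 and 272.0 in grafts. All grafts lay below all libraries taken before grafting, and graft replicate 2 stood above the other grafts. The mean fell from 1100 ± 115 to 412 ± 217, 2.67-fold lower, or -1.53 ± 0.31 (SE) as a log2 fold change (adjusted p = 0.00956). This was the least secure of the 7 calls: the adjusted p was 0.0522 without replicate 1 before grafting, at a log2 fold change of -1.46. Markers of T and NK cells, which can carry DPP4, moved the same way, with 10 of 11 tested genes called lower and 1 higher. Their summed level was 4934 to 8171 before grafting and 497 to 1068 in grafts, and no marker was at 0 in a whole group. The highest graft sum was again in replicate 2, but the lowest was in replicate 1, whereas Dpp4 was lowest in replicate 3. Of 8 dendritic cell markers 6 were called lower and 1 higher, Itgax (1.25, adjusted p = 0.0389), and their sum went from 3692 to 4314 before grafting to 1107 to 2463 in grafts, also with replicate 2 the highest. The interstitial progenitor list, Dpp4 included, summed to 12160, 15460 and 10674 in graft replicates 1, 2 and 3, so it too was highest in replicate 2. The part of any of these cell types in the Dpp4 result was not tested.

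Cd55 encodes decay accelerating factor, which takes apart complement convertases on the cell that carries it (chromosome 1, 130439027 to 130462744, minus strand). It had 2482, 1598 and 2135 normalized counts before grafting and 908.9, 879.6 and 577.7 in grafts, without overlap. The mean fell from 2072 ± 446 to 789 ± 183, 2.63-fold lower (log2 fold change -1.40, SE 0.22, adjusted p = 0.00228). Of the distinct 50-base words in its annotated transcripts, 9.12% also occur, on either strand, in transcripts of other genes, chiefly its tandem paralog Cd55b and an antisense gene. Cd55b had 2.0 to 3.9 normalized counts before grafting and 0 in every graft, so few reads were assigned to that copy. Before grafting, replicate 2 was lowest for Cd55 and also for the summed B and plasma cell markers, at 5514 against 9255 and 11827 in replicates 3 and 1. All 6 tested B and plasma cell markers were called lower. Their graft sums were 193.8, 395.7 and 146.4 in replicates 1, 2 and 3, highest in replicate 2. Cd55 was highest in graft replicate 1, and both were lowest in graft replicate 3. The part of these cells in the Cd55 result was not tested.

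Other surface guards against complement were lower as well. Cd59a, which blocks the membrane attack complex, fell most, by -2.92 ± 0.17 (SE) in log2, Cd59b by -2.26 and Cd46 by -0.94. Among the components themselves, C4b fell by -1.72, C2 by -1.38 and C3 by -0.43 (adjusted p = 0.0452), while Cfb, of the alternative pathway, rose by 1.54. The receptors for the complement fragments C3a and C5a, which macrophages and neutrophils carry, rose by 4.09 for C3ar1 and 3.76 for C5ar1. Of 10 tested complement genes, Cd55 included, 7 were called lower and 3 higher, with a median of -1.16.

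Icam1 encodes the adhesion molecule to which leukocyte beta-2 integrins bind (chromosome 9, 21015985 to 21028817, plus strand). It had 1030, 736 and 686 normalized counts before grafting and 2429, 3266 and 2752 in grafts. Every graft was more than 2-fold above the highest library before grafting. The mean rose from 817 ± 186 to 2816 ± 422, 3.44-fold, or 1.80 ± 0.17 (SE) as a log2 fold change (adjusted p = 0.000182). Its transcripts share 13.1% of their 50-base words with other genes, chiefly the antisense gene Gm47079, which is outside the table, and whether the counting used strand is not given in the sources used here. Among the genes of its leukocyte ligands, Itgb2, the shared beta-2 chain, rose by a log2 fold change of 2.57 and Itgam, the alpha chain of Mac-1, by 4.33. Itgal, another integrin gene of this list, lay outside the table and was not analysed here. Vcam1, another adhesion molecule induced by cytokines, fell from 2092 ± 189 to 1453 ± 104, or -0.52 in log2 (adjusted p = 0.00882). The cytokine genes Tnf and Il1b, whose products can induce Icam1 through NF-kappaB, rose by 4.32 and 10.78. The NF-kappaB target genes Nfkbia and Tnfaip3 rose by 3.09 and 3.55. The part of these cytokines and of NF-kappaB in the Icam1 result was not tested. Of 15 tested genes on the Icam1 adhesion list, 12 were called higher and 1 lower, with a median of 1.68.

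Cells other than preadipocytes that can carry ICAM1 moved in both directions. Of 10 macrophage markers 9 were called higher, led by Msr1 (4.66), Itgam (4.33) and Cd14 (4.02), and their summed level went from 24357 to 28069 before grafting to 219944 to 224594 in grafts. Of 9 tested neutrophil markers 8 were called higher and 1 lower, and their sum went from 765 to 914 to 61937 to 98060. No macrophage or neutrophil marker in the table was at 0 across a group. Of 12 endothelial markers 6 were in the table, of which 4 were called lower and 2 missed the threshold, with a sum of 15597 to 19281 before grafting and 7846 to 9020 in grafts. The part of each of these cell types in the Icam1 result was not tested.

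F3, tissue factor, starts blood coagulation when it meets factor VII (chromosome 3, 121723537 to 121735048, plus strand). It had 356.9, 381.9 and 339.4 normalized counts before grafting and 1229, 1332 and 1540 in grafts, the tightest groups among the members that rose. The mean rose from 359 ± 21 to 1367 ± 158, 3.80-fold (log2 fold change 1.92, SE 0.12, adjusted p = 1.53e-05). Its transcripts share no 50-base word with another annotated gene. The genes of its partners rose from low levels: F7, factor VII, went from 8.3 ± 3.8 to 642 ± 37 and F10, the factor X that the pair activates, from 12.6 ± 7.5 to 2465 ± 351. The inhibitors of the pathway rose with it, Tfpi by a log2 fold change of 1.13 and Tfpi2 by 3.68, as did F2r, the thrombin receptor, by 1.04. Plaur, the urokinase receptor gene, rose by 4.10. Of 12 tested coagulation genes 10 were called higher and 0 lower (median 1.93), and F2rl2 and F2rl3 missed the threshold at 1.47 and 0.94 (adjusted p = 0.0668 and 0.0672). Prothrombin, the gene F2, had 2.0 to 6.9 before grafting and 0 in all grafts and was too low to test, and 1 gene of the list was called lower when low genes were kept. By p alone, without adjustment, 0 of the 12 tested genes were lower at under 0.05. Macrophage markers, given with Icam1, rose alongside F3, F7 and F10, and their part in these results was not tested.

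Clec11a encodes osteolectin, a secreted growth factor with a C-type lectin domain (chromosome 7, 44302687 to 44306902, minus strand). It had 118.3, 121.6 and 71.8 normalized counts before grafting and 404.7, 496.5 and 550.0 in grafts, without overlap. The mean rose from 104 ± 28 to 484 ± 73, 4.66-fold, the largest change among the members (log2 fold change 2.24, SE 0.23, adjusted p = 0.000257). Its transcript shares no 50-base word with another gene. Itga11 and Itgb1, which encode the chains of its integrin receptor, rose by 1.14 and 1.13. Kitl, which encodes stem cell factor, fell by -1.46, and 5 of 6 tested genes of the Clec11a list were called higher and 1 lower. The number called higher was 3 without replicate 2 or 3 before grafting and 2 under the scaling that holds the ribosomal protein genes level.

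Zfp423, the transcription factor of the group, lies on chromosome 8 (87661810 to 87959595, minus strand). It had 589.7, 484.2 and 576.4 normalized counts before grafting and 199.9, 225.0 and 214.7 in grafts, with the smallest relative spread of any member in grafts. The mean fell from 550 ± 57 to 213 ± 13, 2.58-fold (log2 fold change -1.36, SE 0.13, adjusted p = 0.000162). Its paralog Zfp521, which opposes adipocyte commitment, had 335 ± 28 before grafting and 430.4 ± 71.4 in grafts and missed the threshold (log2 fold change 0.35, adjusted p = 0.271). The early B cell factors, DNA-binding partners of ZFP423 in preadipocytes, fell together: Ebf1 by -1.26, Ebf2 by -2.01 and Ebf3 by -1.90. B and plasma cell markers and adipocyte markers fell as well, with medians of -5.6 and -6.04. The part of B cells and adipocytes in the falls of Zfp423 and these factors was not tested. Bmp4, the morphogen that drives commitment, fell from 82.2 ± 5.9 to 33.3 ± 4.0, and Wisp2, whose product holds ZFP423 out of the nucleus, rose from 174 ± 3 to 1483 ± 242. The BMP antagonist genes Nog and Grem1 rose by 3.12 and 2.32. BMP receptors and mediators took no common direction: Bmpr1b rose by 4.22 (adjusted p = 0.00023) from a low level, Bmpr2, Smad1 and Smad4 rose by 1.08, 0.49 and 0.57, Smad9 fell by -2.70, and Bmpr1a (-0.39, adjusted p = 0.0676), Id1 (-0.67, adjusted p = 0.0742) and Id3 (-0.43, adjusted p = 0.162) were not called. Id2, of the same family of BMP-responsive inhibitors, rose by 1.04 (adjusted p = 0.00558). Among 19 tested genes of the ZFP423 and BMP list 8 were called higher and 6 lower, with a median of 0.35, and 3 were called higher under a scaling that holds the ribosomal protein genes level.

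Other regulators of the preadipocyte gave 5 higher and 8 lower among 13 tested, with a median of -1.36. The early adipogenic factors Cebpb and Cebpd rose by 3.32 and 1.66, while the later factors Cebpa and Pparg fell by -2.38 and -4.17. Zfp467, a zinc finger cofactor that promotes adipogenesis, fell by -1.36. Wnt5a and Sox9 rose by 1.47 and 1.96. Gata2 and Gata3, which hold preadipocytes back, fell by -1.25 and -2.64, as did Wnt10b by -2.35. Klf15 and Srebf1 fell by -5.75 and -2.46, and Egr2 rose by 1.85. Adipocyte markers fell (median -6.04) and macrophage markers rose (median 3.23), and the part of these cells in the changes of the regulators was not tested.

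**Figure D2:**
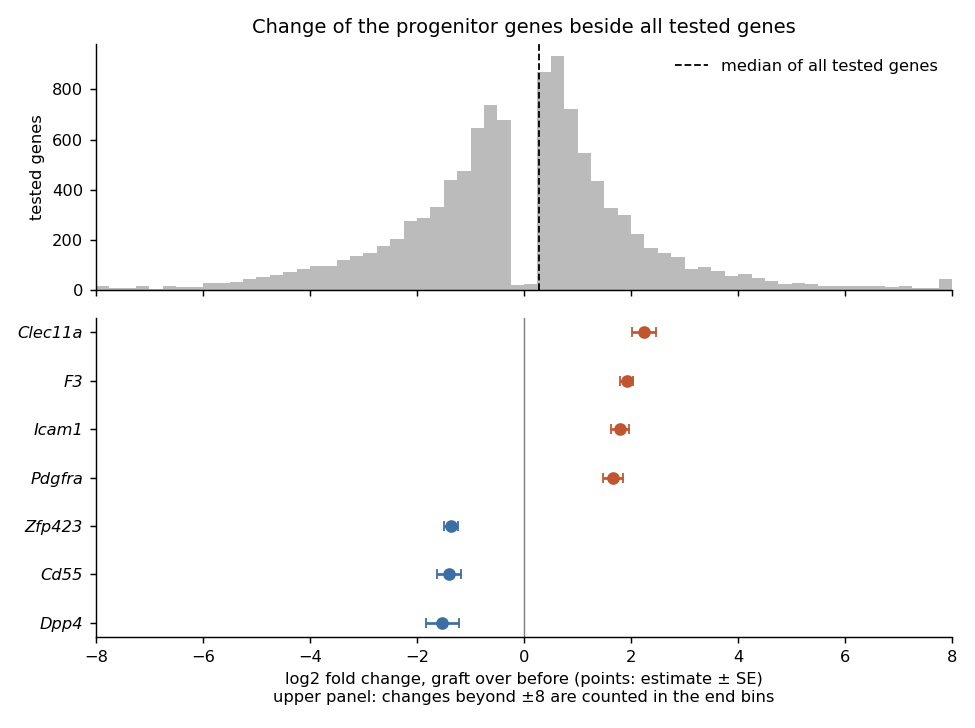
Upper panel, the number of tested genes (vertical axis) by log2 fold change of graft over before (horizontal axis, values beyond 8 in either direction counted in the end bins), with the median of 0.28 as a dashed line. Lower panel, the estimate and SE for each of the 7 progenitor genes: 4 lie between 1.66 and 2.24, 3 between -1.53 and -1.36, and few tested genes lie within 0.25 of 0 in the selected table.

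The members give only 1 or a few genes for each progenitor state, and the other markers of these states did not all follow them. On the interstitial progenitor list, 13 of 16 genes were in the table and tested. Dact2 (-1.80), Limch1 (-1.80), Ly6c1 (-1.42), Gpr1 (-1.30) and Smpd3 (-3.89) fell along with Dpp4 and Cd55, which makes 7 called lower, and the list's median was -1.40. Creb5 rose, by 0.84. Bmp7 and Efhd1 had estimates of -1.95 and -1.40 but missed the threshold (adjusted p = 0.0849 and 0.0841). The broad progenitor surface genes Cd34 and Ly6a, which encodes SCA-1, had estimates of 0.41 and 0.52 and also missed it (adjusted p = 0.114 and 0.0674), as did Anxa3 at 0.48 (adjusted p = 0.078). Creb5 was not called under the ribosomal scaling, and the number of genes called higher was 2 without graft replicate 1, 3 without graft replicate 3 and 4 with adjustment over tested genes only. Pi16, Wnt2 and Sema3c lay outside the table and were not analysed here.

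The committed preadipocyte list went against Icam1. Of its 8 tested genes, Icam1 and Cdh11 rose and Pparg, Fabp4, Cd36, Lpl and Aoc3 fell by log2 fold changes of -4.45 to -2.49, with a list median of -2.95, and Sparcl1 was not called (-0.59). All 5 that fell are also expressed in mature adipocytes, whose own 12 markers were all called lower and summed to 467525 to 622932 before grafting and 4959 to 21372 in grafts. The part of adipocytes in these falls was not tested. Cdh11, a cadherin of mesenchymal cells, rose from 126 ± 23 to 2498 ± 610, a log2 fold change of 4.29. Dlk1, the preadipocyte factor, was outside the table and not analysed here.

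The list of CD142-positive, adipogenesis-regulatory cells was divided. Of 11 tested genes, 7 were called higher, among them F3, Clec11a, Bgn (3.43), Igfbp3 (2.24), Aldh1a2 (1.89) and Cd24a (1.72), and the median was 1.89. The 3 called lower were Fmo2 (-2.20), Gdf10 (-2.49) and Meox2 (-1.68), and Cpe missed the threshold at -0.80 (adjusted p = 0.0758). Under the ribosomal scaling 4 genes were called higher. Bgn, the proteoglycan biglycan, and Aldh1a2, an enzyme of retinoic acid synthesis, are not restricted to these cells. Igfbp3, a carrier of insulin-like growth factors, differed widely among grafts, with 10737, 7359 and 2872 normalized counts in replicates 1, 2 and 3.

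Pdgfra rose together with most tested genes of the stroma. Of 22 tested stromal genes 18 were called higher and 2 lower, with a median of 1.36, and 11 were called higher under the ribosomal scaling. The number called lower was 1 without replicate 2 or 3 of either group. Col1a1, Col1a2 and Col3a1, the fibrillar collagen genes, rose by 3.85, 3.17 and 2.58, while Dcn, the proteoglycan decorin, rose by 0.88 and Lum missed the threshold at 0.89 (adjusted p = 0.205). Prrx1, a transcription factor of mesenchymal cells, rose by 1.75, close to the 1.66 of Pdgfra. The actin-severing gene Gsn fell by -3.73. All 13 tested myofibroblast genes were called higher, with a median of 3.01. Timp1, Cthrc1 and Lrrc15 rose by 8.79, 7.14 and 6.33, and Fap, a peptidase related to DPP4, rose by 0.53, from 462 ± 48 to 664 ± 20.

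**Figure D3:**
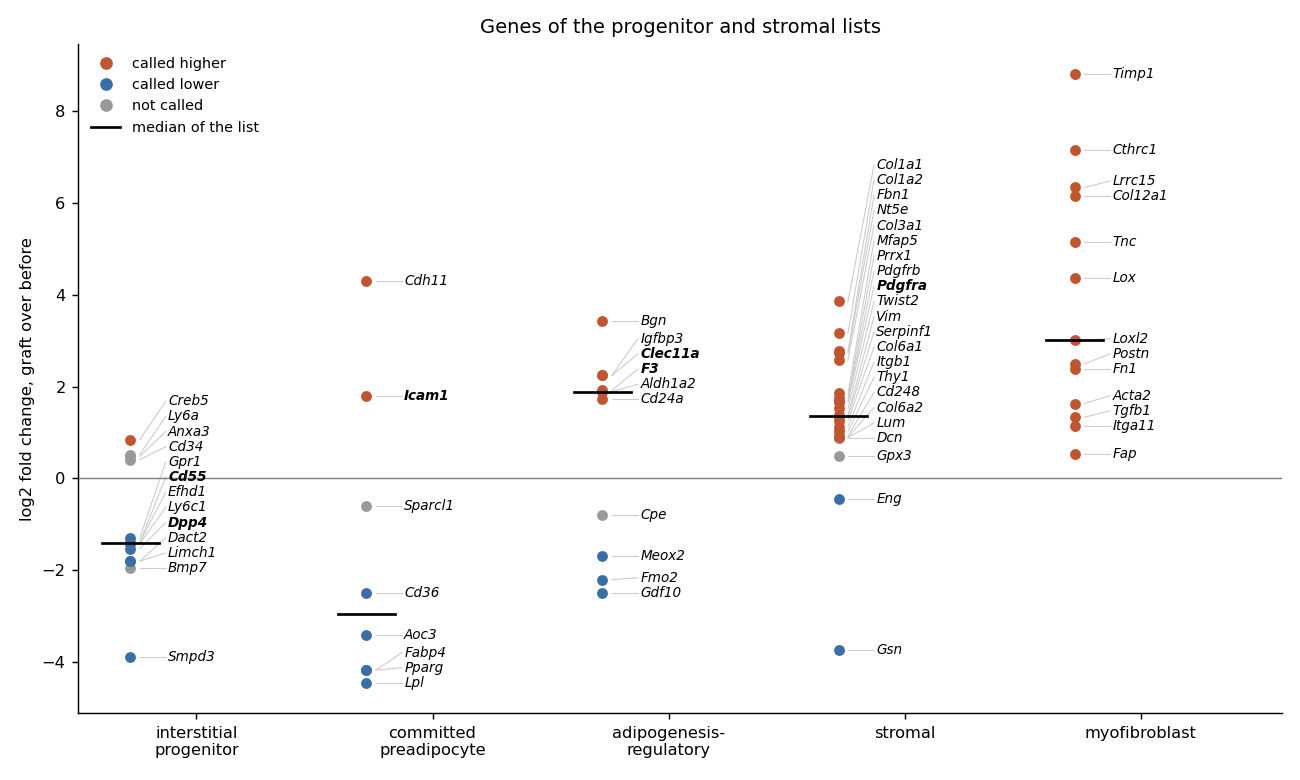
Log2 fold change of graft over before (vertical axis) for tested genes of 5 lists (columns; 1 gene of the third list is not shown), with genes called higher in orange, called lower in blue and not called in grey, the list's median as a black bar and the progenitor genes chosen here in bold. The medians are -1.40, -2.95, 1.89, 1.36 and 3.01 from left to right, and the first 3 lists hold genes of both directions.

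Genes that act with DPP4 moved either way. Its binding partner Ada, adenosine deaminase, rose by 1.55, and Cav1, a caveolar protein abundant in adipocytes, fell by -1.59. Among chemokines that the peptidase trims, Cxcl12 rose by 1.38 and Cxcl10 by 1.80 while Ccl22 fell by -3.50. Gipr, the receptor for an incretin that DPP4 inactivates, rose from 122 ± 11 to 284 ± 82. Npy, a neuropeptide substrate, had 0 reads in each library before grafting and 177.8, 97.9 and 46.5 normalized counts in grafts. Of 11 tested genes 6 were called higher and 4 lower, with a median of 0.53. Placing Npy at its bound of 3 reads in each library before grafting could not change this median, since Npy stays above it. The number called lower was 1 without replicate 1 before grafting and 2 without replicate 2 or 3 before grafting, and the number called higher was 3 under the ribosomal scaling.

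Divided by gene length, so that genes can be compared, Cd55 stood highest before grafting at 427 ± 92 normalized counts per kilobase. Icam1 (187 ± 43), Dpp4 (174 ± 18) and Pdgfra (174 ± 23) followed with overlapping values. F3 at 142 ± 8 overlapped Pdgfra, and Zfp423 at 98.1 ± 10.2 and Clec11a at 34.9 ± 9.3 stood apart below. In grafts the order of these levels had changed to Icam1 (646 ± 97), Pdgfra (559 ± 144) and F3 (541 ± 63), which overlapped one another. Cd55 (163 ± 38) and Clec11a (162 ± 25) overlapped too, and Dpp4 (65.1 ± 34.3) and Zfp423 (38.0 ± 2.3) came last without overlap.

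Ratios between members within a library do not depend on the scaling between libraries. Before grafting a library held 1.18, 1.35 and 1.59 Dpp4 normalized counts for each of Icam1, and in grafts 0.124, 0.202 and 0.0988. On the log2 scale, with 1 added to each value, the mean ratio went from 0.45 ± 0.21 to -2.88 ± 0.53. The ratio of Dpp4 to F3 went from 1.61 ± 0.21 to -1.84 ± 0.76 and that of Pdgfra to Zfp423 from 1.66 ± 0.25 to 4.68 ± 0.33. Of the 21 pairs, 13 had ratios that did not overlap between the groups, namely all 12 pairs of a member that rose with a member that fell, and Pdgfra with Clec11a. For those 12 this follows from the members' own values, which were apart in opposite directions, so only the sizes add to the levels. With 3 libraries against 3 the two-sided exact permutation test cannot go below p = 0.10, or 0.16 after adjustment over the 21 pairs.

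Ratios among members that moved the same way differed by 0.58 or less between the groups. Pdgfra to Icam1 changed by -0.14 in the log2 ratio (exact permutation p = 0.60, adjusted 0.70), from 1.11 ± 0.17 to 0.97 ± 0.33. Icam1 to F3 changed by -0.12 (exact permutation p = 0.60), from 1.16 ± 0.32 to 1.04 ± 0.23. Cd55 to Zfp423 changed by -0.04 (exact permutation p = 0.90), from 1.89 ± 0.18 to 1.86 ± 0.39, and Dpp4 to Cd55 by -0.13 (exact permutation p = 0.70), from -0.89 ± 0.18 to -1.03 ± 0.59. The largest change was that of Pdgfra to Clec11a, from 4.08 ± 0.26 to 3.51 ± 0.16 (exact permutation p = 0.10, adjusted 0.16). Its ratios did not overlap between the groups, but this p is the lowest the test can give and missed the threshold. No share of non-overlapping ratios over other gene pairs was computed, so this pair is not set apart from the rest. Dpp4 to Zfp423 spread from 0.34 to 1.55 among grafts around values of 0.92 to 1.05 before grafting. With so few libraries a p that misses the threshold does not show that the pairs move alike.

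**Figure D4:**
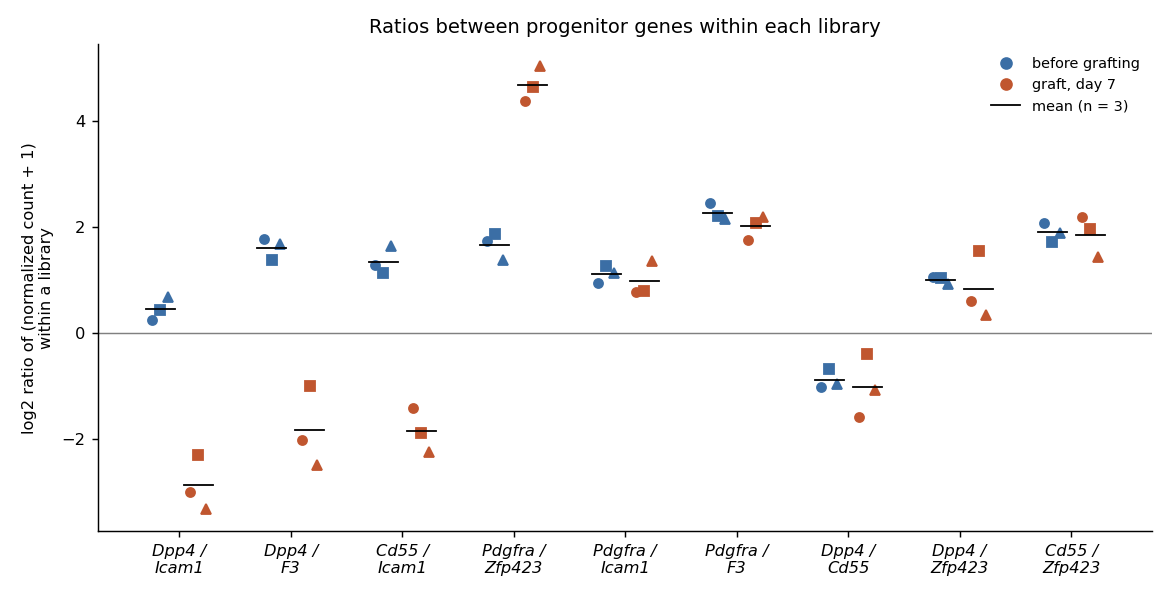
Log2 ratio of normalized counts plus 1 between named pairs of progenitor genes (vertical axis) within each library, before grafting in blue and in grafts in orange, with marker shapes for replicates 1 (circle), 2 (square) and 3 (triangle) and group means as black lines. The ratios of the 4 pairs on the left do not overlap between the groups, and those of the 5 pairs on the right do.

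For each member, the tested genes whose profile over the 6 libraries lay closest were found by the root mean square difference of log2 values after centring each gene on its own mean. Since all profiles are dominated by the difference between the groups, this is a description only. Ahnak2 and Azin2 lay closest to Pdgfra (differences 0.098 and 0.103), and Dpysl3 and Src to Icam1 (0.0814 and 0.103). Armh4 and Ccdc8 lay closest to Clec11a (0.086 and 0.122), and Pgs1 and Snx18 to F3 (0.0599 and 0.0727). Among genes that fell, Arhgap20 and Alpl lay closest to Dpp4 (0.131 and 0.174), Klhl29 and Fgf2 to Cd55 (0.118 and 0.133), and Zfp931 and Ivns1abp to Zfp423 (0.0439 and 0.0543).

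The 6 libraries held 13027776 to 15924559 reads in the listed genes, taking 1 step of the values as 1 read, and the full depth is unknown because the table is a selection. All 12 adipocyte markers were present in every library before grafting, as the labelled tissue requires, and no skeletal muscle marker of 8 was in the table. Under the deposited scaling 51.3% of the called genes were higher in grafts. That share was 40.8% with equal upper quartiles and 25.9% under the ribosomal scaling, when the median of all tested genes moved from 0.28 to 0.07 and -0.47. Under the last scaling Pdgfra had a log2 fold change of 0.90 and Dpp4 of -2.29, and all 7 members were still called in the same direction. That scaling lowers every log2 fold change by about the same amount, so that the estimates for Smad1, Smad4 and Fap are then below 0.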

How the data were processed

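RNA sequencing of 6 libraries, 3 before grafting and 3 at day 7, was analysed. The deposited values are a signal, namely the authors' read counts scaled within each library, as read from the values: 100% of them were whole multiples of a library's step of 0.96979 to 1.01304, to within 0.01 reads. Per the submitters' processing notes the tools were HISAT2 2.0.5 and Bowtie 0.12.2 and the builds mm9 and mm8. Deposited coordinates nevertheless lay within 1000 bp of those of GENCODE M21 (GRCm38) for 12011 of 12163 genes. No source used here gives the counter, its use of strand, the normalization tool or the gene filter. The 6 per-sample tables held the same values, and deposited gene lengths gave values per kilobase.

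The table is a selection on the outcome. Its row order had a Spearman correlation across genes of 0.978 with the p obtained here, and 10772 of 10854 tested genes had p under 0.05. Log2(value + 1) was fitted by limma 3.58.1 (R 4.3.3; two-sided, mean trend, robust) where 3 or more libraries reached 10. Benjamini-Hochberg adjustment ran over 55450 annotated genes, with p set to 1 for those outside the table. The spread was estimated from selected genes, which limits every p, and p-values measure only the spread between these libraries. Count models planned as a further test were not run. Ratios were compared by exact permutation.

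Individual values of 2 genes on the lists are not reported here, although they enter the counts and medians. The members and lists were chosen with earlier results of these data known. Named genes are the members, genes of the progenitor, stromal and partner lists, up to 3 markers of each other cell type in the prevailing direction plus 2 against it, and the 2 closest profiles per member. Python 3.11.15, numpy 2.4.6, pandas 2.3.3 and scipy 1.17.1 were used.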

Additional observations from a re-analysis of the deposited data

How the results depend on the processing

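The 16 alternatives (pseudocounts of 0.5 and 5, no filter on low values, 4 other scalings, no mean trend, adjustment over tested genes only, the replicate block and leaving out each library) gave 112 log2 fold changes for the 7 members. Of these 111 kept their direction and call, 0 reversed, and 1 missed the threshold, that of Dpp4 without replicate 1 before grafting (adjusted p = 0.0522). The cause was not tested. The counts of 4 members higher and 3 lower held otherwise. Called genes numbered 8730 as reported, 7080 to 8144 with 1 library left out and 10769 with adjustment over tested genes only. Non-overlapping pairs of members numbered 13, and 14 to 16 with 1 library left out. Of 864 counts of called genes in the lists, 797 stayed within 1.5 times. The 864 include counts of the members themselves and of the skeletal muscle list, which had no gene in the table and could not move. The labels used here do not say whether libraries with the same replicate number are paired. Same-numbered libraries had correlations of -0.157, -0.127 and 0.041 after removing group means. With 3 libraries in each group these values cannot exclude pairing. With the replicate block 7556 genes were called, including all 7 members. The planned count models on recovered reads were not run. The full depth is unknown, so no detection limit is given.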

Other observations

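Among genes used to mark lymphatic endothelium, Pdpn went the other way from the rest. Pdpn, the gene of podoplanin, a surface glycoprotein that fibroblasts and macrophages can also carry, had 181, 135 and 153 normalized counts before grafting and 3648, 5532 and 4500 in grafts, or 4.85 ± 0.17 (SE) as a log2 fold change (limma, adjusted p = 1.65e-06). The other 4 tested genes of that list were called lower, with the largest falls in Mmrn1, Prox1 and Lyve1. All 5 tested Schwann cell markers were called lower (median -1.33), and 3 of them without graft replicate 3 or any single library before grafting. All 6 tested mural cell markers were called lower, with a median of -1.48 and the largest falls in Cspg4, Myh11 and Higd1b, although Pdgfrb, which those cells also carry, rose.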
